A study of Mus musculus with 4 samples.

Results

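The genes described here encode 9 transcription factors that set up or keep the acinar cell of the exocrine pancreas: Ptf1a, Rbpjl, Rbpj, Bhlha15, Xbp1, Nr5a2, Gata4, Gata6 and Foxp2. They were chosen by gene symbol, and each of the 9 had 1 row in the count tables, out of 23238 distinct symbols. The 4 libraries came from primary pancreatic acinar cells of C57BL/6J mice, and the age of the animals is not in the labels. In one kind of culture an adenovirus delivered estrogen-related receptor γ (ERRγ, gene Esrrg), an orphan nuclear receptor known for driving oxidative metabolism, and in the control cultures the same kind of vector delivered green fluorescent protein (GFP). There were 2 libraries with ERRγ and 2 with GFP, each virus was used at a multiplicity of infection of 100, and cells were collected after 36 h. Both groups shared the medium, Waymouth's with 2.5% serum, trypsin inhibitor, antibiotics and 25 ng/ml epidermal growth factor, and both carried a virus, so no untransduced cells stand beside them. Whether the 2 libraries with the same virus stem from different mice or dishes is not in the labels; p-values therefore measure the spread between these libraries alone, and that spread may be technical.

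Acinar cells owe their enzyme production to a small network of factors. PTF1 is a complex of the basic helix-loop-helix (bHLH) protein PTF1A, a common bHLH partner (an E protein), and either RBPJ, which also carries the Notch signal in most tissues, or RBPJL, the form that takes over in mature acinar cells and drives the genes of digestive enzymes. MIST1, the product of Bhlha15, and XBP1 build the secretory machinery. NR5A2 works with PTF1 on enzyme genes, GATA4 and GATA6 act in pancreas formation and in keeping the acinar state, and FOXP2 is a forkhead repressor listed among acinar-enriched factors. Acinar cells kept in culture with epidermal growth factor are known to lose this program and take on features of duct cells.

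The start regions of the paralogs Rbpjl and Rbpj are shown because Rbpjl had the largest fold change among the factors tested and its reads are set against those of Rbpj further on. Each is a RefSeq window of 250 bases before and 50 after an annotated start on GRCm38.p6, read 5′ to 3′ on the plus strand. Capitals mark, on either strand, the elements that make up a PTF1 site: the E-box, written CANNTG, and the TC-box, written TGGGAA.
Rbpjl, chr2:164402944-164403243: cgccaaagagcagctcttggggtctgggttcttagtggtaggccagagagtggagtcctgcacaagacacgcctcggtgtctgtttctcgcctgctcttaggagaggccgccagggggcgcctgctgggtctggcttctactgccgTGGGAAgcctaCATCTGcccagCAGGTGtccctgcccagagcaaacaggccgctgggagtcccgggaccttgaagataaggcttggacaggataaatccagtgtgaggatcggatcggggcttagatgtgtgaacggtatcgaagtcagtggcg
Rbpj, chr5:53590096-53590395: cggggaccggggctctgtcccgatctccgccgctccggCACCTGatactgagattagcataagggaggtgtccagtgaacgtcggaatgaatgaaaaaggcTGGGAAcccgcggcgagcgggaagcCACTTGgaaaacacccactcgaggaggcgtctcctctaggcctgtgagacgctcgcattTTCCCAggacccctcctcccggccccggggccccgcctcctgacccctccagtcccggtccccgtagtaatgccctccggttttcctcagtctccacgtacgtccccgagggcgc
In the Rbpjl window the TC-box begins 104 bases before the start, and E-boxes begin 93 and 82 bases before it. The Rbpj window, the first of 2 for this gene, holds 2 TC-boxes and 2 E-boxes. Among all 32851 windows of that table, 25.6% hold TGGGAA and 72.3% hold CANNTG on either strand, so these letters are common. The response element of ERR proteins, TCAAGGTCA, which NR5A2 also recognises, stood in none of the 8 windows of the 6 factors that had one (Ptf1a, Bhlha15, Nr5a2, Rbpjl, Rbpj and Xbp1), against 0.423% of all windows. Its core AAGGTCA was not in those 8 windows either (4.72% of all windows). With up to 1 mismatch it stood in the Rbpjl window alone, as TCAAGGTCC on the minus strand from 40 bases before the start, where the change is A9C counted from the 5′ end of the element; 7.46% of all windows hold such a match. A match is a string of letters and not a shown binding site, and its absence from a window says nothing about binding elsewhere.

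The libraries held 10480878 and 10645277 counts with ERRγ, against 10105604 and 11012351 with GFP. Esrrg, the gene that the virus carried, stood at 130 and 1284 CPM (read counts scaled to library size with TMM factors) with ERRγ, against 8.80 and 9.60 CPM with GFP, so the ERRγ libraries themselves lay far apart; reads of the viral and the endogenous copy are not told apart. Digestive enzyme genes, the defining markers of the labelled cell type, were low: 25 of 27 had a count, 16 passed the filter on low counts, Ctrc and Try10 had none, and their sum was 120 and 114 CPM with ERRγ, against 152 and 63.1 CPM with GFP. The chymotrypsinogen gene Ctrb1 had the most counts among them in each of the 4 libraries, with 45.7 and 54.0 CPM with ERRγ, against 47.1 and 31.8 CPM with GFP. All 12 duct markers had counts, with sums of 9878 and 11706 CPM with ERRγ, against 13822 and 14095 CPM with GFP; 2 of them rose (Car2 and Cftr) and 3 fell (Krt7, Krt8 and Muc1), where 5.06% of all genes tested rose and 1.78% fell. The 13 islet markers summed to 58.1 and 16.5 CPM with ERRγ, against 226 and 35.0 CPM with GFP. The 12 fibroblast and stellate markers summed to 1033 and 708 CPM with ERRγ, against 1249 and 724 CPM with GFP. The 10 endothelial markers summed to 21.3 and 22.1 CPM with ERRγ, against 20.6 and 10.3 CPM with GFP. Of 11 immune markers 10 had counts, Cd3e being at 0, and they summed to 49.2 and 74.1 CPM with ERRγ, against 98.4 and 94.2 CPM with GFP. Most of these sums came from Cd14, with 42.2 and 58.4 CPM with ERRγ, against 86.2 and 81.1 CPM with GFP. Cd14 fell, with 473 and 591 counts with ERRγ, against 843 and 904 with GFP (log2 fold change −0.74, SE 0.18, edgeR adjusted p = 0.0488). The other tested immune markers did not pass. Csf1r was higher in both ERRγ libraries (42 and 72 counts, against 24 and 37 with GFP). Cd68 overlapped (27 and 67 with ERRγ, against 51 and 47 with GFP), and Aif1 was lower (3 and 9 with ERRγ, against 30 and 36 with GFP). Adgre1 was not tested, and had 0 and 0 counts with ERRγ, against 8 and 20 with GFP. Other immune markers too low to test were Ptprc (0 and 0 counts with ERRγ, against 1 and 0 with GFP) and Itgam (1 and 2, against 1 and 0). So were Lyz2 (6 and 0, against 3 and 6), Nkg7 (0 and 0, against 1 and 0) and Cd79a (0 and 9, against 0 and 0). The part of other cell types in the results that follow was not tested. Since these are bulk samples, fewer cells of a type and less RNA per cell cannot be told apart.

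None of the acinar factors passed the test for a difference between ERRγ and GFP, and by their counts, which come from transcript ends and do not grow with transcript length, they formed 3 kinds: no reads (Ptf1a), a trace of reads (Bhlha15, Foxp2, Nr5a2 and Rbpjl), and clear expression (Xbp1, Gata4, Gata6 and Rbpj). Of the 9 genes, 7 passed the filter on low counts and were tested, and 0 of these 7 had an adjusted p under 0.05 by edgeR's quasi-likelihood test with Benjamini-Hochberg adjustment over all 13070 genes tested, of which 6.84% did. At an unadjusted p under 0.05 there were 2, Rbpjl and Gata4, against 3017 of all genes tested, which is 23.1%. DESeq2 and limma-voom also called 0 of the 7 after adjustment and 2 before. Of all 13070 genes tested they called 1162 and 871 after adjustment, and 2488 and 2986 before. The groups did not overlap for 3 of the 7, Rbpjl, Gata4 and Gata6, all higher with ERRγ (54% of all genes tested did not overlap, and 27.4% were higher with ERRγ without overlap). The median log2 fold change of the 7 was 0.16, and that of all genes tested was −0.01; the median of the 7 was 0.52 without ERRγ library 1, −0.03 without ERRγ library 2, 0.38 without GFP library 1 and −0.06 without GFP library 2.

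**Figure D1:**
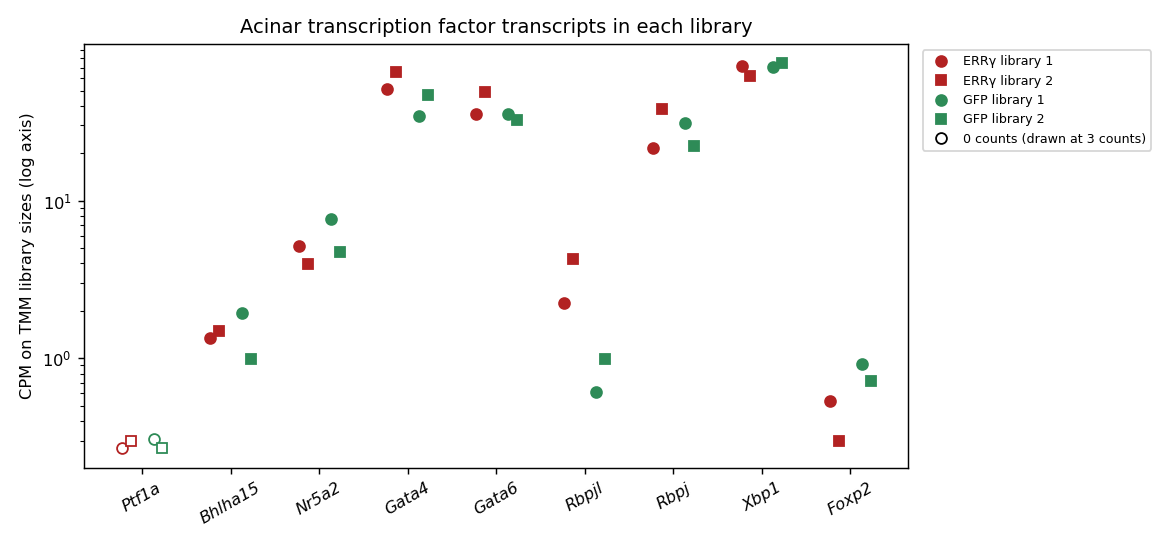
Level of each acinar transcription factor in CPM on a log axis, 1 point per library, ERRγ in red and GFP in green, circles for library 1 and squares for library 2. Open symbols mark 0 counts, drawn at the CPM of 3 counts. Rbpjl is the gene whose ERRγ points (2.23 and 4.25 CPM) stand farthest above its GFP points (0.614 and 0.987 CPM), and Ptf1a is open in all 4 libraries.

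In the PTF1 group the DNA-binding founder of the complex was not detected, while the acinar form of the RBPJ subunit was read in all libraries. Ptf1a (chromosome 2, 19445663 to 19447501, plus strand) had 0 counts in both ERRγ and both GFP libraries, which allows up to 0.268 and 0.296 CPM with ERRγ, against 0.307 and 0.269 CPM with GFP (3 counts per library, counting error only). No direction can be given for it, and the antisense gene Ptf1aos that overlaps it had 0 counts as well. Rbpjl had 25 and 43 counts with ERRγ, against 6 and 11 with GFP. In CPM these were 2.23 (exact 95% counting interval 1.44 to 3.29) and 4.25 (3.07 to 5.72) with ERRγ, against 0.614 (0.225 to 1.34) and 0.987 (0.493 to 1.77) with GFP. Both ERRγ libraries lay above both GFP libraries, and ERRγ library 2, the one with more Esrrg, was 1.90 times ERRγ library 1. The mean was 3.24 ± 1.43 CPM with ERRγ, against 0.801 ± 0.264 CPM with GFP (SD, n = 2 each). The log2 fold change was 1.99 (SE 0.62, unadjusted 95% interval 0.56 to 3.41, edgeR adjusted p = 0.0998), which did not pass. Left to the GFP pair for its spread, with ERRγ library 1 out, it was 2.38 and passed (adjusted p = 0.0228); without ERRγ library 2 it was 1.45 (adjusted p = 0.438), without GFP library 1 1.69 (0.455) and without GFP library 2 2.37 (0.311).

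Rbpj, the Notch-responsive paralog, had 242 and 387 counts with ERRγ, against 305 and 247 with GFP. The groups overlapped, since the 2 lowest and the 2 highest of the 4 values each held 1 library of each group. Its mean was 29.9 ± 11.8 CPM with ERRγ, against 26.7 ± 6.39 CPM with GFP (SD, n = 2 each), a log2 fold change of 0.16 (SE 0.29, 95% interval −0.50 to 0.83, edgeR adjusted p = 0.783). Its sign depended on the libraries: without ERRγ library 2 the log2 fold change was −0.31, and without GFP library 2 it was −0.06. Set against each other, Rbpjl took 9.36% and 10% of the reads of this pair with ERRγ and 1.93% and 4.26% with GFP. The exact binomial 95% intervals were 6.15% to 13.5% and 7.33% to 13.2% with ERRγ, against 0.711% to 4.15% and 2.15% to 7.50% with GFP. The share needs no scaling between libraries, and the 2 values with ERRγ were above the 2 with GFP. The intervals of both ERRγ libraries overlapped that of GFP library 2. An exact permutation test over 2 against 2 libraries cannot reach 0.05, so none was used.

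**Figure D2:**
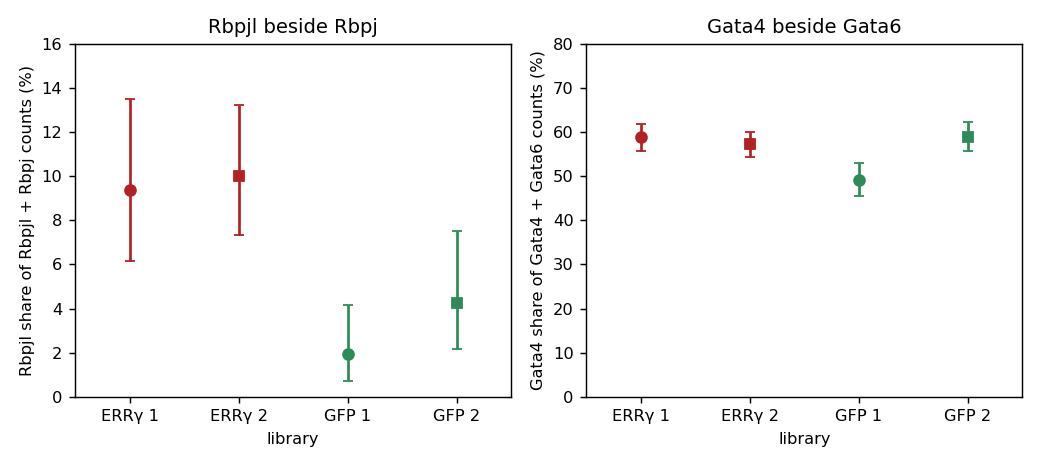
Share of counts, in percent, that Rbpjl takes of Rbpjl plus Rbpj (left) and Gata4 of Gata4 plus Gata6 (right), 1 point per library with its exact binomial 95% interval, ERRγ in red and GFP in green. The Rbpjl share was 9.36% and 10% with ERRγ and 1.93% and 4.26% with GFP, while the Gata4 share of both ERRγ libraries lay between those of the GFP libraries.

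By annotation, Rbpjl (chromosome 2, 164403141 to 164415448, plus strand, GENCODE M21 on GRCm38) overlaps the gene Matn4 of the minus strand at its 5′ end. Matn4 had 279 and 433 counts with ERRγ, against 255 and 300 with GFP (log2 fold change 0.35, SE 0.25, edgeR adjusted p = 0.447). The positions of the Rbpjl reads were not examined, and the part of Matn4 in them was not tested. Rbpj (chromosome 5, 53466152 to 53657362, plus strand) overlaps antisense genes and has the pseudogenes Rbpj-ps1 and Rbpj-ps3 in the annotation, none of which have a row in the tables. Reads that match both Rbpj and such a copy may have been lost or assigned to Rbpj, so its level is uncertain to that degree. The Rbpj window printed above lies inside the annotated gene, whose annotated start is farther upstream.

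Of the secretory factors, Bhlha15 stayed at a trace and Xbp1 at a clear level with both viruses. Bhlha15 had 15 and 15 counts with ERRγ, against 19 and 11 with GFP, that is 1.34 and 1.48 CPM with ERRγ, against 1.94 and 0.987 CPM with GFP. Both ERRγ values lay between the GFP values. The log2 fold change was −0.05 (SE 0.62), and its 95% interval, −1.49 to 1.39, ran from 2.80-fold lower to 2.63-fold higher at this depth (edgeR adjusted p = 0.975). Its sign changed with the libraries, from −0.46 without GFP library 2 to 0.50 without GFP library 1. Bhlha15 (chromosome 5, 144190286 to 144194441, plus strand) abuts the 3′ end of Tecpr1 on the opposite strand, which had 569 and 392 counts with ERRγ, against 557 and 599 with GFP. Since the use of strand in counting is not given in the sources used here, part of the Bhlha15 reads could be those of Tecpr1. Xbp1 (chromosome 11, 5520659 to 5525893, plus strand), which is also the main effector of the unfolded protein response, had 797 and 630 counts with ERRγ, against 693 and 830 with GFP. The means were 66.7 ± 6.27 CPM with ERRγ, against 72.7 ± 2.54 CPM with GFP (SD, n = 2 each), and the groups overlapped. Its log2 fold change was −0.12 (SE 0.14, edgeR adjusted p = 0.648), with the narrowest interval of the factors tested: it covered a level 1.36-fold lower to 1.15-fold higher. The counts do not separate the spliced, active messenger of Xbp1 from the unspliced one, whose difference lies in the coding part of the transcript.

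Nr5a2 (chromosome 1, 136842571 to 136960448, minus strand), the nuclear receptor partner of PTF1, had 58 and 40 counts with ERRγ, against 75 and 53 with GFP. In CPM these were 5.17 and 3.95 with ERRγ, against 7.67 and 4.76 with GFP, so that ERRγ library 1 lay between the GFP libraries. The log2 fold change was −0.44 (SE 0.39, 95% interval −1.35 to 0.47, edgeR adjusted p = 0.557); without GFP library 1 it was −0.06. Nr5a2 and Bhlha15 were higher in GFP library 1 than in GFP library 2, by 1.61 and 1.97 times. Rbpj, Gata6 and Foxp2 were also higher there, and Rbpjl, Gata4 and Xbp1 were lower. The digestive enzyme sum (152 and 63.1 CPM) and the islet sum (226 and 35.0 CPM) were also higher in GFP library 1 than in GFP library 2. So were the fibroblast and stellate sum (1249 and 724 CPM) and the endothelial sum (20.6 and 10.3 CPM). The immune sum (98.4 and 94.2 CPM) and the duct sum (13822 and 14095 CPM) differed little. The part of these cell types in the values of Nr5a2 and Bhlha15 was not tested.

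The GATA factors were clearly expressed, with every ERRγ library above every GFP library, by small margins. Gata4 (chromosome 14, 63198922 to 63271692, minus strand) had 570 and 661 counts with ERRγ, against 337 and 519 with GFP, or 50.9 and 65.3 CPM with ERRγ, against 34.5 and 46.6 CPM with GFP. Its mean was 58.1 ± 10.2 CPM with ERRγ, against 40.5 ± 8.56 CPM with GFP (SD, n = 2 each). The log2 fold change was 0.52 (SE 0.19, 95% interval 0.07 to 0.97, edgeR adjusted p = 0.163). Gata6 lies on chromosome 18, 11052064 to 11085635, on the plus strand, and had 399 and 494 counts with ERRγ, against 347 and 361 with GFP, or 35.6 and 48.8 CPM with ERRγ, against 35.5 and 32.4 CPM with GFP. A noncoding gene on the other strand, 1010001N08Rik, overlaps it and had 10 and 13 counts with ERRγ, against 19 and 16 with GFP. For Gata6, ERRγ library 1 and GFP library 1 nearly coincided, and ERRγ library 2 stood above the other 3. The log2 fold change of Gata6 was 0.31 (SE 0.18, 95% interval −0.11 to 0.74, edgeR adjusted p = 0.357). Both passed when ERRγ library 1 was left out (0.69 with adjusted p = 0.00142 for Gata4, 0.52 with adjusted p = 0.0331 for Gata6), and without ERRγ library 2 the values were 0.32 (adjusted p = 0.296) and 0.07 (adjusted p = 0.913). Of the reads of this pair, Gata4 took 58.8% and 57.2% with ERRγ and 49.3% and 59.0% with GFP, which overlap. Foxp2 (chromosome 6, 14901349 to 15441977, plus strand) was at the edge of detection, with 6 and 3 counts with ERRγ, against 9 and 8 with GFP, and was not tested. Both ERRγ libraries were below both GFP libraries. The ratio of summed counts, 9 with ERRγ, against 17 with GFP, was 0.519 after scaling (exact 95% counting interval 0.204 to 1.23), so no difference was detectable at this depth.

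**Figure D3:**
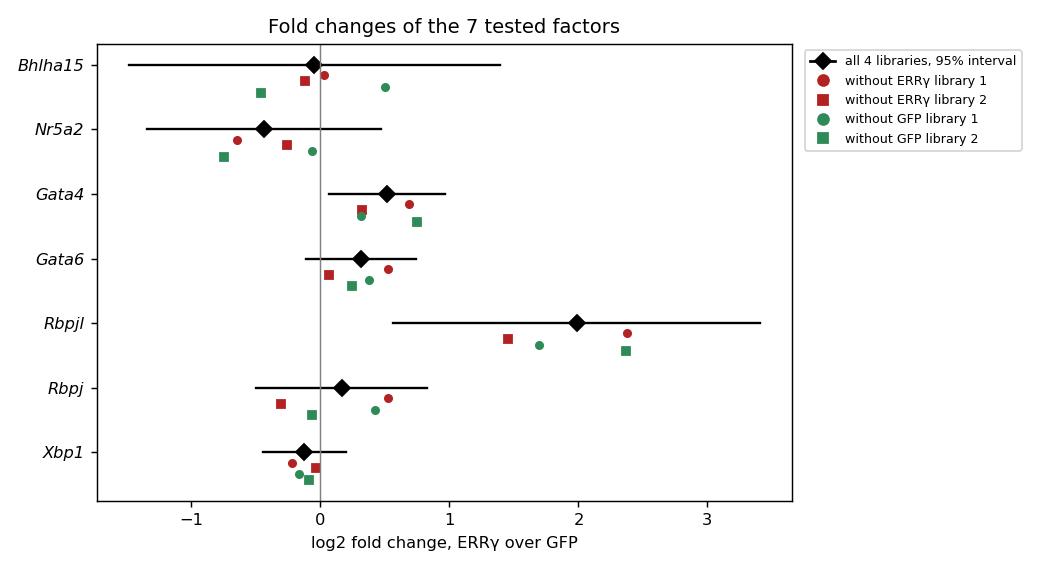
Log2 fold change of ERRγ over GFP for the 7 tested factors, with black diamonds and lines for all 4 libraries and their 95% intervals, and coloured points below for fits that each left out 1 library. The points of Bhlha15 and Rbpj fall on both sides of 0. Those of Rbpjl (1.45 to 2.38), Gata4 (0.31 to 0.75) and Gata6 (0.07 to 0.52) lie to the right of 0, as must be where the groups do not overlap, and those of Nr5a2 (−0.75 to −0.06) and Xbp1 (−0.22 to −0.03) to its left.

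The median absolute log2 difference between ERRγ libraries was 0.38 for the 7 factors and 0.26 for all genes tested, and between GFP libraries it was 0.49 for the factors and 0.20 for all genes tested. In each pair 5 of the 7 factors lay above the median of all genes; Xbp1 lay below it in both pairs, Bhlha15 between ERRγ libraries and Gata6 between GFP libraries. Several factors have few counts, and the part of counting error in this spread was not tested. Between the ERRγ libraries, with their 130 and 1284 CPM of Esrrg, 5 factors were higher in library 2, by 1.11 times for Bhlha15, 1.28 for Gata4, 1.37 for Gata6, 1.77 for Rbpj and 1.90 for Rbpjl. Xbp1, Nr5a2 and Foxp2 were lower there, at 0.875, 0.764 and 0.554 times library 1. With 1 library at each Esrrg level these are 2 values per gene, and no relation to Esrrg can be tested.

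Partners, inhibitors, paralogs and targets of the factors were read from 8 lists of 145 genes in all. Of these, 117 were tested, 8 rose and 4 fell, against 5.06% of all genes tested that rose and 1.78% that fell.

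Both NR0B corepressors were read with ERRγ and not with GFP. Nr0b2 encodes SHP, an atypical nuclear receptor without a DNA-binding domain that represses NR5A2 in liver and is itself a known target of both NR5A2 and ERRγ. It had 263 and 213 counts with ERRγ, against 0 and 0 with GFP, at least 77.2-fold higher when GFP is set at 3 counts per library (edgeR adjusted p = 0.000352). Nr0b1 encodes the related corepressor DAX1, and had 30 and 14 counts with ERRγ, against 0 and 0 with GFP, at least 7.05-fold higher (edgeR adjusted p = 0.0264). The groups were apart for both, as they were for 54% of all genes tested. These were the 2 of 10 genes that rose in the list of GATA and NR5A2 cofactors, and none fell. Of all genes tested, 5.06% rose and 1.78% fell. The median log2 fold change over the list was −0.07. At their bounds the 2 genes stay the largest of the list, so the median cannot change with them. The call for Nr0b2 held without any single library, and that for Nr0b1 ended without GFP library 1 (adjusted p = 0.200) or GFP library 2 (0.169) and could not be tried without ERRγ library 1.

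The genes of the Id proteins, which hold E proteins away from partners such as PTF1A and MIST1, did not move in 1 direction: Id2 and Id3 rose and Id1 fell. Id2 had 177 and 124 CPM with ERRγ, against 37.8 and 46.6 CPM with GFP, and rose 3.57-fold (log2 fold change 1.84, SE 0.20, edgeR adjusted p = 0.00283). Id3 had 28.2 and 25.0 CPM with ERRγ, against 12.0 and 10.4 CPM with GFP, and rose 2.38-fold (edgeR adjusted p = 0.0127). Id1 had 17.0 and 11.0 CPM with ERRγ, against 32.7 and 32.2 CPM with GFP, and fell (log2 fold change −1.21, SE 0.23, edgeR adjusted p = 0.0224). The groups did not overlap for any of these, and for 54% of all genes tested they did not overlap either. The E protein genes Tcf3, Tcf4 and Tcf12, shown as the remaining tested genes of this list of 7, had log2 fold changes of −0.32, −0.18 and 0.10 and did not pass; Id4 was too low to test. The calls for Id1 and Id3 ended without GFP library 1 (adjusted p = 0.195 and 0.112) or GFP library 2 (0.148 and 0.124), and that for Id2 ended without GFP library 1 (0.0683).

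**Figure D4:**
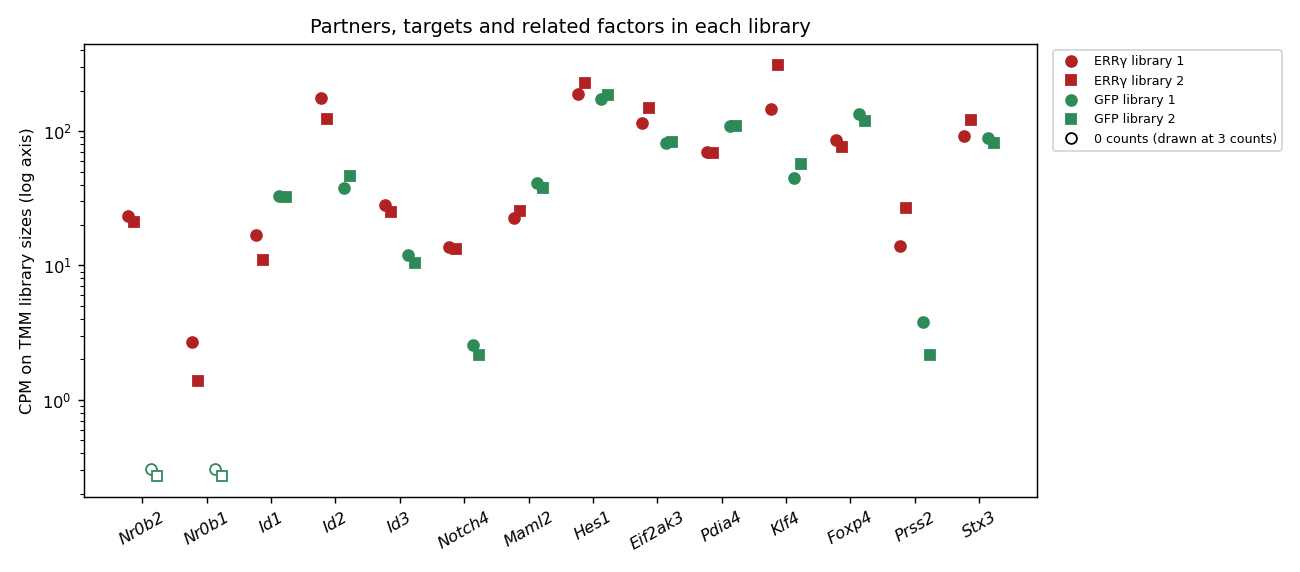
Level in CPM on a log axis of the named partners, targets and related genes, 1 point per library, ERRγ in red left of GFP in green. Open symbols mark 0 counts drawn at 3 counts. Nr0b2 and Nr0b1 are open with GFP alone, and Id2 and Id3 lie higher, but Id1 lower, with ERRγ.

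In the Notch list, where RBPJ is the nuclear effector, the receptor gene Notch4 rose and the coactivator gene Maml2 fell. Notch4 had 154 and 135 counts with ERRγ, against 25 and 24 with GFP, a rise of 5.74-fold (log2 fold change 2.52, SE 0.31, edgeR adjusted p = 0.00473). Notch4 is known from endothelial cells. The 10 endothelial markers summed to 21.3 and 22.1 CPM with ERRγ, against 20.6 and 10.3 CPM with GFP. Of the 7 that were tested, 4 had a positive and 3 a negative log2 fold change, and 0 passed. The part of endothelial cells in the rise of Notch4 was not tested. Maml2, of the Mastermind family, had 254 and 256 counts with ERRγ, against 404 and 417 with GFP (log2 fold change −0.72, SE 0.16, edgeR adjusted p = 0.0376). These were the 2 of 19 tested genes that passed, out of 27 listed, where 6.84% of all genes tested passed. The list's median was −0.18. Hes1, the classical target of Notch and RBPJ, stood at 208 ± 27.8 CPM with ERRγ, against 180 ± 8.95 CPM with GFP (SD, n = 2 each), and did not pass (log2 fold change 0.21, SE 0.15, edgeR adjusted p = 0.427). Both calls ended without GFP library 1 (adjusted p = 0.0659 for Notch4 and 0.309 for Maml2) or GFP library 2 (0.0665 and 0.171), and that for Maml2 also with library totals in place of TMM scaling (0.0589).

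The unfolded protein response list, in which XBP1 acts, had 1 gene up and 1 down of 32 tested, with a median of −0.10. Log2 fold changes were positive for 14 and negative for 18. An unadjusted p under 0.05 by edgeR was found for 11 of the 32 (34.4%), against 23.1% of all genes tested. Sdf2l1 (−0.68, edgeR adjusted p = 0.0505), Hyou1 (−0.56, 0.0510) and Pdia6 (−0.53, 0.0558) were lower and missed the threshold narrowly. They were singled out after their values were seen. Eif2ak3, which encodes the stress sensor PERK of another branch, had 1281 and 1505 counts with ERRγ, against 797 and 929 with GFP, and rose 1.59-fold (edgeR adjusted p = 0.0466). Pdia4, a protein disulfide isomerase gene of the endoplasmic reticulum, had 779 and 693 counts with ERRγ, against 1071 and 1218 with GFP, and fell (log2 fold change −0.67, SE 0.13, edgeR adjusted p = 0.0225). DESeq2 called 5 genes of this list and limma-voom 3, against 1162 and 871 of all 13070 genes tested. In the list of MIST1 targets and granule genes 0 of 10 tested genes passed by edgeR, DESeq2 or limma-voom. By edgeR 6.84% of all genes tested passed. An unadjusted p under 0.05 was found for 0 of the 10 in any of the 3, against 23.1% of all genes tested by edgeR. The list's median was 0.24, and −0.05 without ERRγ library 1. Stx3, a membrane fusion gene of secretory granules, had the smallest p there (log2 fold change 0.33, SE 0.16, edgeR adjusted p = 0.274), and passed without ERRγ library 1 (0.52, adjusted p = 0.0132). The calls for Eif2ak3 and Pdia4 ended without GFP library 1 (0.327 and 0.206) or GFP library 2 (0.258 and 0.169).

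Among the digestive enzymes, the targets of PTF1 and NR5A2, 1 of 16 tested genes rose and none fell, where 5.06% of all genes tested rose and 1.78% fell. The median log2 fold change was −0.73, with 14 of the 16 negative, but it rested on GFP library 1: without that library it was 0.91, with 12 of the 16 positive, and without ERRγ library 2 it was −0.16. With no library left out, 49.2% of all genes tested had a positive log2 fold change. The trypsinogen gene Prss2 had 157 and 271 counts with ERRγ, against 37 and 24 with GFP, and rose 6.88-fold (log2 fold change 2.78, SE 0.42, edgeR adjusted p = 0.00905). Trypsinogen genes are near-identical, and reads could be shared among them, so the value of this single gene is uncertain. Try4 had 18 and 11 counts with ERRγ, against 75 and 16 with GFP (log2 fold change −1.73). Try5 had 55 and 36 with ERRγ, against 66 and 20 with GFP (−0.001), and neither passed. Prss1 (3 and 0 with ERRγ, against 1 and 0 with GFP) and Prss3 (0 and 0, against 2 and 0) were too low to test. The other 26 enzyme genes together had 1185 and 884 counts with ERRγ, against 1449 and 679 with GFP, and both ERRγ sums lay between the GFP sums. The call for Prss2 ended without GFP library 1 (adjusted p = 0.0720) or GFP library 2 (0.0963).

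Among 19 tested factors of progenitor, duct and other pancreatic cells, Klf4 alone passed, where 6.84% of all genes tested did. Klf4 encodes a Krüppel-like factor that takes part in the change of acinar cells toward duct-like cells. It had 147 and 313 CPM with ERRγ, against 44.6 and 56.5 CPM with GFP, and rose 4.54-fold (log2 fold change 2.18, SE 0.33, edgeR adjusted p = 0.00896), with a value of 1.53 once ERRγ library 2 was out. DESeq2 called 2 genes of this list, against 1162 of all 13070 genes tested. Of 5 tested paralogs of the factors, 1 fell, the forkhead gene Foxp4, with 970 and 766 counts with ERRγ, against 1302 and 1321 with GFP (log2 fold change −0.63, SE 0.14, edgeR adjusted p = 0.0385). Of all genes tested, 1.78% fell. Its relative Foxp1 averaged 161 CPM with ERRγ, against 201 CPM with GFP, and did not pass (log2 fold change −0.31, edgeR adjusted p = 0.299). Gata3 had 34 and 27 counts with ERRγ, against 2 and 9 with GFP (log2 fold change 2.44, SE 0.71, edgeR adjusted p = 0.0850), and Gata2 had 32 and 22 with ERRγ, against 15 and 14 with GFP (0.85, SE 0.53, adjusted p = 0.385). Neither passed. Both were higher in each ERRγ library than in each GFP library, as were 27.4% of all genes tested. Foxp1, Gata2 and Gata3 were singled out after their values were seen. The call for Klf4 ended without GFP library 1 (adjusted p = 0.146) or GFP library 2 (0.0833), and that for Foxp4 likewise (0.317 and 0.163) and with library totals (0.0713).

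**Figure D5:**
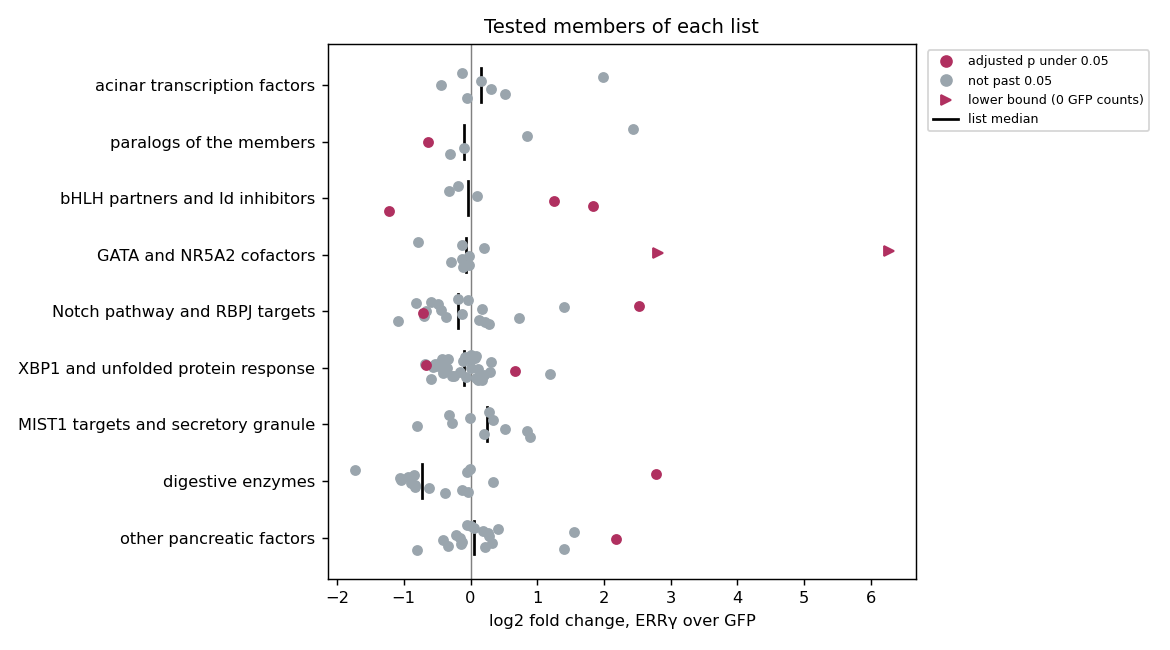
Log2 fold change of ERRγ over GFP for every tested gene of the acinar factors (top) and of the 8 lists of partners, targets and related genes. Each point is a gene, dark red where the adjusted p is under 0.05; triangles are lower bounds for genes with 0 GFP counts, and black bars are list medians. The acinar factors have no dark red point and a median of 0.16, and the rightmost triangle is Nr0b2 at 6.27.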

How the data were processed

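Transcript-end libraries (Lexogen QuantSeq, from 500 ng total RNA) were made from each culture, per the labels' protocols. The deposited values are whole-number read counts per gene symbol, 1 table per library, with no normalization; Bowtie2, edgeR and mm10 are named, without versions, in the submitters' processing notes, while the counter, annotation, strand setting and any filter are not given in those notes. Tables have 23282 rows. Groups came from the sample titles. edgeR 4.0.16 under R 4.3.3 was used: filterByExpr kept rows (minimum count 10; 13070 rows), TMM set the scale, and tests used glmQLFit and glmQLFTest on the group alone (2 residual degrees of freedom), two-sided, with Benjamini-Hochberg adjustment over all rows tested and a threshold of 0.05. The SE is the log2 fold change divided by the square root of F, and 95% intervals use the moderated degrees of freedom, unadjusted. Floors are 3 counts per library; intervals and floors cover counting error only, since no molecular identifiers are mentioned. Totals of 10105604 to 11012351 counts make 1 count worth 0.0892 to 0.102 CPM. Same-group libraries differed beyond sampling noise (chi-square per degree of freedom 22.6 with ERRγ, against 14.3 with GFP). The script was tested on simulated counts. Alternatives were DESeq2 1.42.0, limma-voom (limma 3.58.1), RLE factors, library totals, other filters, a replicate block and leaving out each library.

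The 9 genes, the lists and the rule for named genes were chosen with earlier results of these data known. Named were all 9 factors, Nr0b2 and Hes1, and of each list up to 4 genes past the threshold or, where none passed, the one with the smallest p; genes nearest in profile were to be named for factors past the threshold, and there were none. Positions come from GENCODE M21 (GRCm38, the assembly of mm10), and windows from RefSeq on GRCm38.p6: 6 of the 9 factors matched, and Gata4, Gata6 and Foxp2 did not. 1 cell type marker is not reported here.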

Additional observations from a re-analysis of the deposited data

How the results depend on the processing

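With RLE factors, library totals, a 5 CPM filter, DESeq2, limma-voom or the replicate block, 0 acinar factors passed, as with the settings reported; with no low-count filter 2 passed (Rbpjl, log2 fold change 1.98, adjusted p = 0.0329, and Gata4, 0.51, adjusted p = 0.0373). Without that filter 2009 genes passed in all, against 894, and 23 genes of the 8 lists, against 12; the cause was not tested. Leaving out 1 library at a time gave 99 to 2695 genes in all, 0 to 3 factors and 1 to 29 list genes: 2695, 3 and 29 without ERRγ library 1, 1614, 0 and 23 without ERRγ library 2, 99, 0 and 1 without GFP library 1, and 139, 0 and 2 without GFP library 2. In those fits the lone library of a group is assumed to vary like the other group. Over them the log2 fold change ranged from −0.46 to 0.50 for Bhlha15, −0.31 to 0.52 for Rbpj, 0.31 to 0.75 for Gata4, 0.067 to 0.52 for Gata6, 1.45 to 2.38 for Rbpjl, −0.75 to −0.06 for Nr5a2 and −0.22 to −0.03 for Xbp1. Bhlha15 turned to 0.041 with limma-voom. With the replicate number as a block 1091 genes and 15 list genes passed; the labels do not say that numbers pair libraries, and deviations of same-numbered libraries correlated at 0.01 over 10349 genes. Bhlha15 and Rbpjl were too low for the 5 CPM filter, and Foxp2, tested only without a filter, had a log2 fold change of −0.96 there (adjusted p = 0.748). By an alternative added after the data were seen, leaving out 1 library turned the sign of these median log2 fold changes: the 7 factors (−0.03 without ERRγ library 2, −0.065 without GFP library 2), the paralogs (0.14 without ERRγ library 2), MIST1 targets and granule genes (−0.046 without ERRγ library 1), other pancreatic factors (−0.032 without ERRγ library 1) and digestive enzymes (0.91 without GFP library 1). The ranges were −0.06 to 0.52 for the factors, −0.40 to 0.14 for the paralogs, −0.05 to 0.27 for granule genes, −0.03 to 0.18 for other pancreatic factors and −1.25 to 0.91 for enzymes.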
